A study of Homo sapiens with 9 samples.

Results

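The plasminogen activators and serpins described here are 9 genes of the 60420 gene identifiers in the deposited tables. They were taken by symbol: the activators PLAU and PLAT, the receptor PLAUR, and the serpins SERPINE2, SERPINB2, SERPINI1, SERPINB6, SERPINB8 and SERPINB9. Of these, 8 were above 0 and entered the tests, alongside 13825 genes in all. SERPINB9 was listed at 0 in all 9 libraries, and a gene filtered before deposit would look the same, so this does not show that it was silent.

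The cells were A375, an established human melanoma line. RNA was prepared at day 7 of a knockdown against the SPANX genes, near-identical cancer-testis genes of the X chromosome. The 3 groups of 3 libraries were the EV control, SPANX KD 86 and SPANX KD 87, and both knockdown constructs were set against the same EV libraries. The labels do not say whether the replicates were separate cultures, so p-values measure only how far these libraries vary, which may reflect technical variation. Reads were counted from the 3′ ends of transcripts, and the recovered depth of the 9 libraries was about 11310000 to 15560000 reads.

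Urokinase (PLAU) and tissue plasminogen activator (PLAT) are secreted serine proteases that cut plasminogen into plasmin, a protease that degrades fibrin and extracellular matrix. The urokinase receptor (PLAUR), anchored in the membrane by a lipid, holds urokinase at the cell surface. Serpins are inhibitors that trap a protease by a covalent, suicide mechanism. Those acting on the activators include SERPINB2 (PAI-2), SERPINE2 (protease nexin-1) and SERPINI1 (neuroserpin). In melanoma the system is known for its part in invasion.

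Values are given as normalised read counts, meaning the deposited values placed on 1 scale across the libraries. Differences are on the log2 scale of the normalised read count plus 1, which understates changes of genes with few reads, and folds are on that same scale. Adjusted p-values are from limma with Benjamini-Hochberg adjustment over the 13825 genes, with a threshold of 0.05. SPANXC and SPANXD, the SPANX genes tested, were lower with both constructs. For KD 86 and KD 87 the limma adjusted p was 0.00372 and 0.00327 for SPANXC, and 0.00016 and 0.00806 for SPANXD. SPANXA1, SPANXA2, SPANXB2 and the SPANXN genes were listed at 0 in all 9 libraries, which does not show that they were silent. SPANXC averaged 352 ± 184 normalised reads (SD, n = 3) in EV, 59.4 ± 35.9 with KD 86 and 25.5 ± 7.89 with KD 87, and SPANXD averaged 75.1 ± 41.6, 0.673 ± 0.583 and 5.96 ± 0.998. Reads may be split among SPANX copies, so the share of any single copy is uncertain. Of 12 melanoma lineage markers 8 were tested, among them MITF, SOX10 and PMEL. MLANA, TYR, TYRP1 and DCT were listed at 0 throughout, which a filter before deposit could also give.

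With KD 86, 2 of the 8 tested members rose and none fell, where 35.6% of all genes tested were called (18% higher and 17.6% lower). With KD 87, 3 members rose and 1 fell, where 10.4% of all genes were called (5.9% higher and 4.47% lower). Between the constructs, 2 members were higher and 1 was lower with KD 87 than with KD 86, where 25.5% of all genes were called (12.6% higher and 12.8% lower). With the replicate number as a block in the fit, 3 members were called with KD 86, 5 with KD 87 and 3 between the constructs, against 55.3%, 31% and 44.1% of all genes. The median log2 difference of the 8 members was 0.35 with KD 86, 0.56 with KD 87 and -0.1 between the constructs, against -0.04, 0 and 0.02 over all genes tested. The knockdown and EV libraries did not overlap for 3 members with KD 86, where 45.3% of all genes did not overlap, and for 4 members with KD 87, where that share was 29.2%. The constructs did not overlap each other for 3 members, where 45.3% of all genes did not. PLAUR and SERPINB2 rose with both constructs. SERPINI1 rose and SERPINE2 fell with KD 87.

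**Figure D1:**
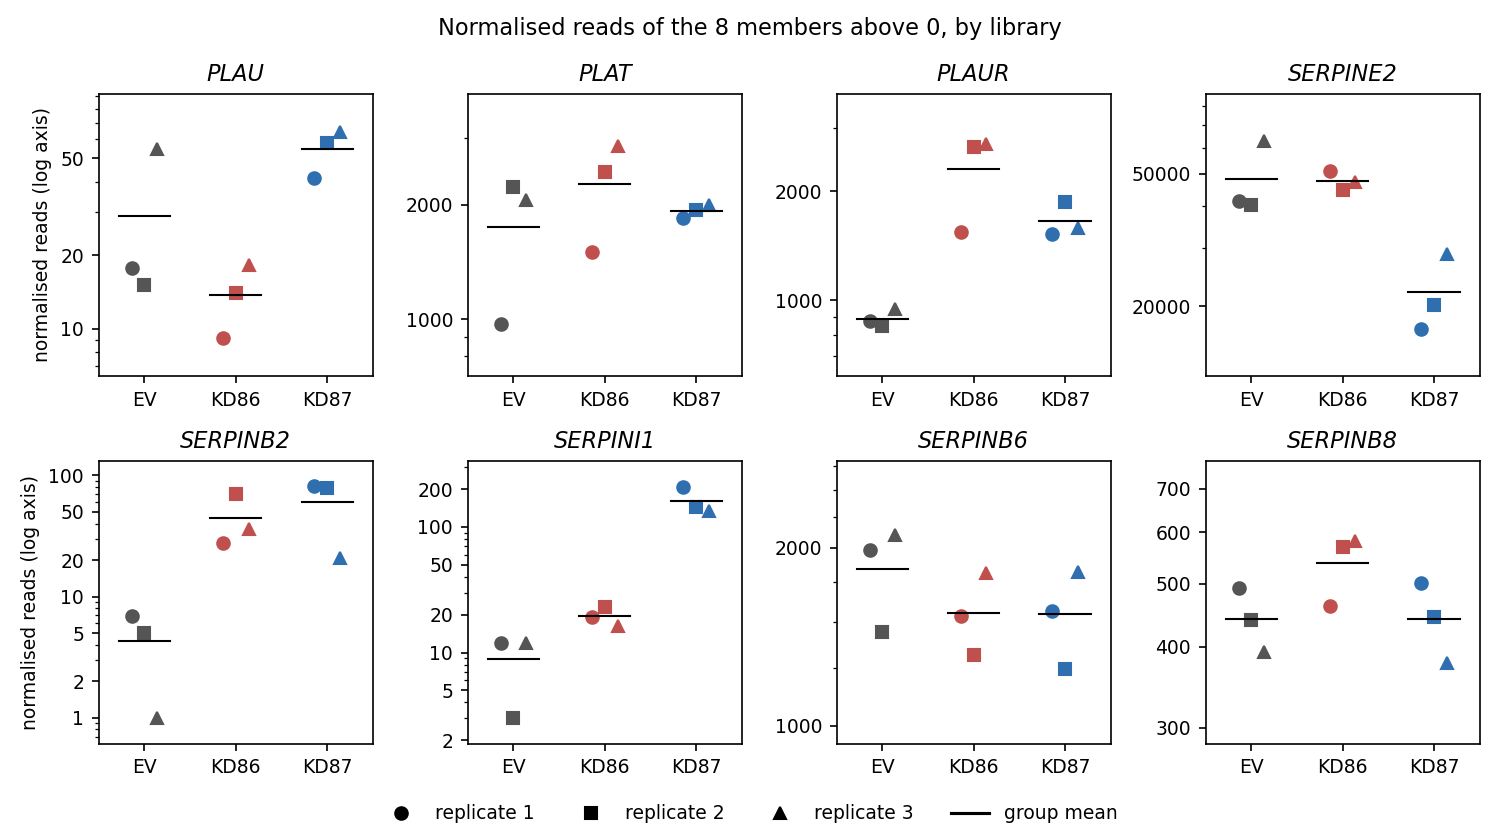
Normalised read counts (log axis) of the 8 members above 0 in each of the 9 libraries, by group, with the replicate number as the symbol and the group mean as a bar. PLAUR and SERPINB2 sat above all EV libraries with both constructs, while SERPINE2 sat low and SERPINI1 high in the 3 KD 87 libraries.

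The receptor PLAUR was the member whose control level was tightest. Its 3 EV libraries held 874, 849 and 942 normalised reads. With KD 86 they held 1543, 2658 and 2711, and with KD 87 they held 1527, 1868 and 1588. Every knockdown library was above every EV library, and the 2 constructs overlapped each other. PLAUR rose by 1.33 on the log2 scale with KD 86 (SE 0.23, 2.51-fold, adjusted p = 0.00175). It rose by 0.90 with KD 87 (SE 0.23, 1.86-fold, adjusted p = 0.0325). The KD 87 call was not kept when any 1 of 5 libraries was left out: adjusted p was 0.1 without EV replicate 1 and 0.0581 without EV replicate 3. It was 0.0988, 0.118 and 0.0561 without KD 87 replicates 1, 2 and 3, while the difference stayed between 0.81 and 0.96. These left-out fits had no replicate block. With all libraries and the block in the limma fit, the adjusted p with KD 87 was 0.00416. Between the constructs PLAUR differed by -0.43 (95% interval -0.94 to 0.07, adjusted p = 0.194), and KD 87 was below KD 86 in 3 of 3 same-number pairs. Before rescaling, the replicate 1 pair ran the other way, at 1543 with KD 87 and 1517 with KD 86. The difference between the constructs passed the threshold at -0.70 without KD 86 replicate 1 (adjusted p = 0.0298), and at -0.60 with the replicate block and a trend with transcript length removed together (adjusted p = 0.00943).

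The promoter of PLAUR is shown because it holds a match to TGANTCA, the site bound by AP-1, the Fos and Jun family of transcription factors. The window runs from 250 bases before to 50 after the RefSeq start on GRCh38.p14, chr19:43670120-43670419, minus strand. Capitals mark the match, 186 bases before the start.
PLAUR: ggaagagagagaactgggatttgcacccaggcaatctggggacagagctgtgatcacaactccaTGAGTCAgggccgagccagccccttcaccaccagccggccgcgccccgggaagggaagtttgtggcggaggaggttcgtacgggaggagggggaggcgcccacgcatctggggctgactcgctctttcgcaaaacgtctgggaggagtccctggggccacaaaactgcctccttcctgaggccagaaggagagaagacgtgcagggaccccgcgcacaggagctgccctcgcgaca
TGANTCA was searched on both strands, and it occurs in 7.71% of 35116 RefSeq windows of this length and in 5.51% of the 14166 windows of tested genes. A match is a string of letters and not a shown site of binding, and counting at 3′ ends does not tell which start was used.

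The activator PLAU was among the least abundant members in reads, with 16, 17 and 51 reads behind the EV values. Its EV libraries held 17.82, 15.1 and 54.55 normalised reads. With KD 86 they held 9.15, 14.04 and 18.2, and with KD 87 they held 41.57, 57.96 and 64.47. Replicate 3 was the highest library in every group, and EV replicate 3 alone overlapped the KD 87 range. Against EV, PLAU differed by -0.84 with KD 86 (95% interval -1.91 to 0.23, adjusted p = 0.198), with the KD 86 library below the EV library of its own number in 3 of 3 pairs. The replicate 2 pair was nearly level, resting on 16 reads with KD 86 and 17 in EV. With KD 87 the difference was 1.10 (0.03 to 2.16, adjusted p = 0.172), and the KD 87 library was above its EV counterpart in 3 of 3 pairs. With the replicate block in the limma fit, the KD 87 difference passed the threshold (adjusted p = 0.0336), as it did at 1.65 without EV replicate 3 (adjusted p = 0.0382). The 2 constructs differed from each other: PLAU was 1.94 higher with KD 87 than with KD 86 (SE 0.48, 3.83-fold, adjusted p = 0.0144), in groups that did not overlap. Without KD 86 replicate 1 the adjusted p of that difference was 0.0549. C10orf55, an annotated gene on the strand opposite PLAU, was listed at 0 in all 9 libraries. Neither of the 2 RefSeq promoter windows of PLAU held TGANTCA, and no window of PLAT was analysed here.

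The activator PLAT passed the test in none of the 3 comparisons. Its EV libraries held 973, 2227 and 2062 normalised reads. With KD 86 they held 1500, 2441 and 2864, and with KD 87 they held 1854, 1944 and 2006. EV replicate 1 was the lowest of all libraries, and all groups overlapped. The differences from EV were 0.41 with KD 86 (95% interval -0.31 to 1.13, adjusted p = 0.347) and 0.23 with KD 87 (-0.49 to 0.95, adjusted p = 0.683). Without EV replicate 1 the KD 87 difference was -0.15. Between the constructs it was -0.18 (adjusted p = 0.734).

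SERPINB2, the inhibitor of urokinase and tissue plasminogen activator that is mostly kept inside cells, had few reads in EV and more with both constructs. Its EV libraries held 6.93, 5.03 and 0.99 normalised reads, from 6, 6 and 1 reads. With KD 86 they held 27.46, 70.22 and 36.39, and with KD 87 they held 81.16, 78.94 and 20.83. All 6 knockdown libraries were above all EV libraries, and KD 87 replicate 3 was the lowest of the 6. SERPINB2 rose by 3.21 with KD 86 (SE 0.66, 9.27-fold, adjusted p = 0.00413). It rose by 3.52 with KD 87 (11.5-fold, adjusted p = 0.00966), and without KD 87 replicate 1 the adjusted p was 0.0565. The constructs differed by 0.31, with an interval of -1.15 to 1.76 that leaves a wide range (adjusted p = 0.778).

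The SERPINB2 promoter window holds 1 match to TGANTCA 102 bases before the start, in capitals below, and a TATAAA 30 bases before it. It is printed because SERPINB2 and PLAUR, the members that rose with both constructs, each hold this string. It lies at chr18:63887455-63887754, plus strand, GRCh38.p14.
SERPINB2: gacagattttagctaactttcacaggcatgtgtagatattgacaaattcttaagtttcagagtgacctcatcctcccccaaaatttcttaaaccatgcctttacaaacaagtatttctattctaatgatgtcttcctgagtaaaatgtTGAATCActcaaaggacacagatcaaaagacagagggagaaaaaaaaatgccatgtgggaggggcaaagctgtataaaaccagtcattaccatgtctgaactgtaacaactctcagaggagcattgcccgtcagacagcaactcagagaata
SERPINB8, called in no comparison, also holds 2 matches, and SERPINI1 holds none. SERPINB10, which is annotated on the same strand and overlaps SERPINB2, was listed at 0 in all libraries.

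SERPINI1, neuroserpin, a secreted inhibitor chiefly of tissue plasminogen activator and best known in neurons, had the largest difference of the members. Its EV libraries held 11.88, 3.02 and 11.9 normalised reads, from 11, 3 and 11 reads. With KD 86 they held 19.33, 23.07 and 16.17, and with KD 87 they held 208.83, 144.9 and 132.91. The 3 groups did not overlap one another. SERPINI1 rose by 4.19 with KD 87 (SE 0.46, 18.3-fold, adjusted p = 0.00121). With KD 86 it was 1.22 above EV (95% interval 0.20 to 2.23, 2.33-fold), and the adjusted p of 0.0601 became 0.0236 with the replicate block. Without EV replicate 3 that adjusted p was 0.0465, and the same difference was called after a trend with transcript length was removed (adjusted p = 0.018). KD 87 was 2.98 above KD 86 (SE 0.46, 7.87-fold, adjusted p = 0.00131). PDCD10, which starts head to head with SERPINI1 and was added outside the rule for named genes, differed by -0.65 with KD 86 (adjusted p = 0.214, or 0.021 with the replicate block) and -0.14 with KD 87 (adjusted p = 0.842).

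The window around the SERPINI1 start, chr3:167735471-167735770, plus strand, GRCh38.p14, is shown beside the others because it belongs to the member that changed most. On either strand it has no match to TGANTCA, the string searched above, to the E-box TCACNTG, to a CCAAT box or to a TATA box, and so no capitals.
SERPINI1: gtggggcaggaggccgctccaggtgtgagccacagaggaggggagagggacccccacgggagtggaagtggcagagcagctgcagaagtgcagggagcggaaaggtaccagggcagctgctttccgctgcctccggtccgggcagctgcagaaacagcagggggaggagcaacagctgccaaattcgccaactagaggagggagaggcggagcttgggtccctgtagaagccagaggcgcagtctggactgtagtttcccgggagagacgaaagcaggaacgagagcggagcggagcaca

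SERPINE2, protease nexin-1, a secreted inhibitor of thrombin, urokinase, tissue plasminogen activator and plasmin, was the member with the most reads. Its EV libraries held 41481, 40272 and 62957 normalised reads. With KD 86 they held 50901, 44652 and 47190, and with KD 87 they held 17060, 20171 and 28751. The KD 87 libraries were below the other 6, and KD 86 lay inside the EV range. SERPINE2 fell by 1.14 on the log2 scale with KD 87 (SE 0.27, 2.2-fold lower, adjusted p = 0.0263). That call was not kept in a fit of only the 2 groups compared (adjusted p = 0.0727). Leaving out 1 library gave adjusted p of 0.0614 without EV replicate 1, 0.0569 without EV replicate 3, 0.133 without KD 87 replicate 1 and 0.097 without KD 87 replicate 2. These left-out fits had no replicate block. With all libraries and the block in the limma fit, the adjusted p with KD 87 was 0.00286. With KD 86 the difference was 0.01 (95% interval -0.60 to 0.61, adjusted p = 0.981). The constructs differed by -1.15 (SE 0.27, 2.21-fold lower with KD 87, adjusted p = 0.0117), or adjusted p = 0.0552 without KD 87 replicate 1.

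RefSeq gives SERPINE2 2 starts, and the windows around them differ in sequence. Window 1, chr2:224031429-224031728, holds 6 matches to TCACNTG, the kind of E-box bound by factors of the MITF family, at 234, 165, 157, 88, 80 and 10 bases before the start, in capitals below. Window 2, chr2:224038591-224038890, holds none. Both are on the minus strand of GRCh38.p14.
SERPINE2 window 1: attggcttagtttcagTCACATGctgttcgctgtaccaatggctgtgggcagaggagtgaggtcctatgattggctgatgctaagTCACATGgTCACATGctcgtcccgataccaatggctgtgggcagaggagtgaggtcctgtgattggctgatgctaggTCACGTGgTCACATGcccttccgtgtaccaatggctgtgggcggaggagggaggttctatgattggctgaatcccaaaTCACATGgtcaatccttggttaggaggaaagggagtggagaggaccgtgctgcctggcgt
SERPINE2 window 2: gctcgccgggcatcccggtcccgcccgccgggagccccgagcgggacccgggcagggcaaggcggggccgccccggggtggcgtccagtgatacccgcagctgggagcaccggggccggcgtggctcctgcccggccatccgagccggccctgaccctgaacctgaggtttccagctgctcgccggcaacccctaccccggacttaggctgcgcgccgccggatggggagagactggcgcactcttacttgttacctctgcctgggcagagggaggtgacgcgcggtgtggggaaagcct
TCACNTG was searched on both strands and is in 15.1% of all windows and 13.4% of those of tested genes. Only 14 windows, of 13 genes, hold 6 or more, and the most in a window is 8. Window 1 also holds 7 matches to CCAAT, a string in 34.6% of all windows. MITF itself averaged 583 ± 104 normalised reads in EV, 563 ± 225 with KD 86 and 726 ± 34.1 with KD 87 (SD, n = 3), and was called with neither construct (limma adjusted p = 0.782 and 0.45). MITF is outside the rule for named genes and is given because its family binds this string.

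SERPINB6 and SERPINB8, which like SERPINB2 are intracellular serpins of clade B, passed the test in none of the 3 comparisons. SERPINB6, an inhibitor of cathepsin G and other serine proteases, held 1979, 1441 and 2099 normalised reads in EV. It held 1535, 1316 and 1810 with KD 86, and 1565, 1245 and 1818 with KD 87. Replicate 2 was the lowest library in each group, and each knockdown library was below the EV library of its own number, in 3 of 3 pairs with either construct. The differences were -0.24 with KD 86 (adjusted p = 0.424) and -0.25 with KD 87 (adjusted p = 0.49). They passed the threshold only with the replicate block and the length trend removed together, at -0.54 (adjusted p = 0.00462) and -0.38 (adjusted p = 0.0418). The constructs differed from each other by -0.02 (adjusted p = 0.97).

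SERPINB8, an inhibitor of the proprotein convertase furin, held 493, 440 and 393 normalised reads in EV. It held 462, 569 and 581 with KD 86, and 501, 445 and 377 with KD 87. All 3 groups overlapped. The differences were 0.28 with KD 86 (adjusted p = 0.277), -0.01 with KD 87 (adjusted p = 0.987) and -0.29 between the constructs (adjusted p = 0.305). HMSD, annotated on the same strand and overlapping SERPINB8, was listed at 0 in all libraries. SERPINB9, the inhibitor of granzyme B, is the member with no value to describe.

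**Figure D2:**
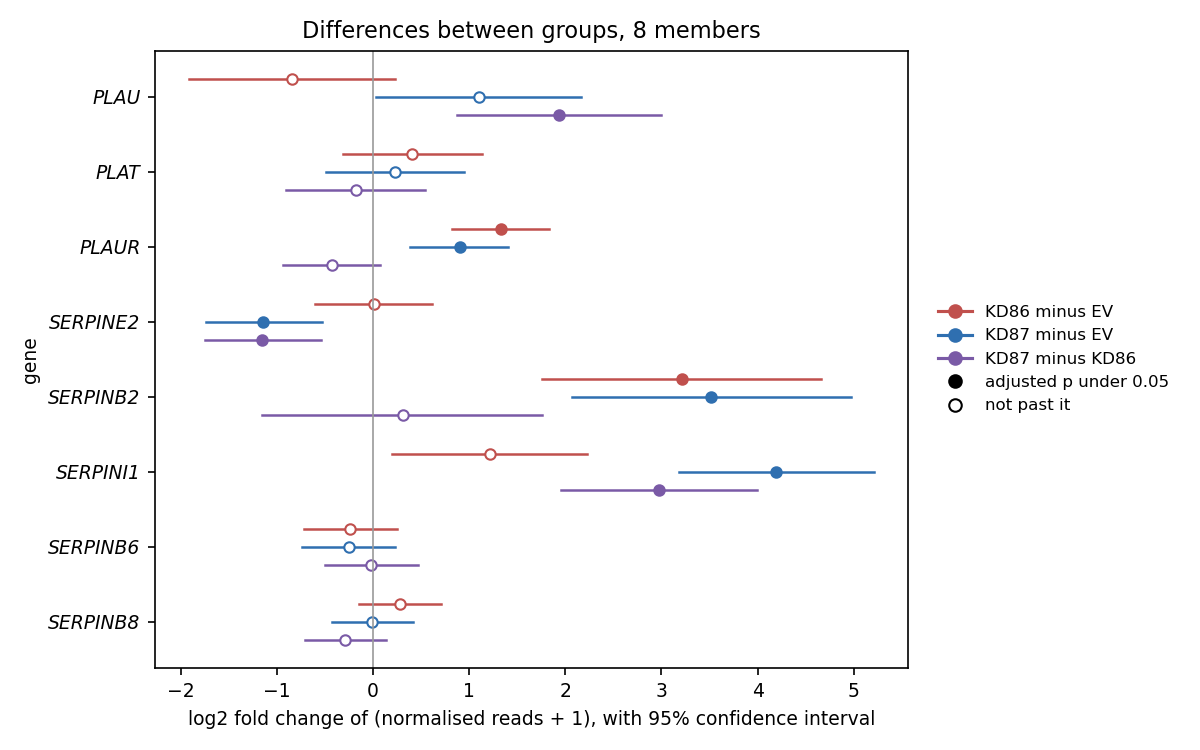
Log2 fold change of each of the 8 tested members for KD 86 minus EV, KD 87 minus EV and KD 87 minus KD 86, with 95% confidence intervals from limma and filled points where the adjusted p was under 0.05. PLAUR and SERPINB2 were filled with both constructs, and PLAU, SERPINE2 and SERPINI1 were filled for KD 87 minus KD 86.

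The serpin genes lie in clusters. SERPINB6 and SERPINB9 neighbour SERPINB1 on chromosome 6, and SERPINB2 and SERPINB8 stand in a row of clade B genes on chromosome 18. Of the 30 tested genes within 3 protein-coding genes of a member on either side, 6 rose and 4 fell with KD 86, which is 33.3% against 35.6% of all genes tested. With KD 87, 1 rose and none fell, which is 3.33% against 10.4%, but with the replicate block 4 rose and 5 fell, which is 30% against 31%. With KD 86 the block gave 9 higher and 8 lower, which is 56.7% against 55.3%.

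The genes whose log2 levels over the 9 libraries were most like each member's were found among tested genes with a mean of at least 50. For SERPINB2 they were CSRNP1 (Pearson r = 0.982), JUN (0.977) and TTC23 (0.975). For PLAUR they were TMEM8A (0.984), FBXO32 (0.983) and IGSF8 (0.982), and for SERPINI1 they were IFI35 (0.974), HIST1H4H (0.972) and CTD-3065J16.9 (0.968). For SERPINE2 they were AKR1C2 (0.976), SDCCAG3 (0.973) and RYK (0.968), and for PLAU they were TTC33 (0.967), DOC2A (0.967) and IFT88 (0.95). For PLAT they were BTBD11 (0.958), ZNF84 (0.933) and MYH15 (0.929). For SERPINB6 they were SRI (0.973), HOXB7 (0.962) and CREM (0.96), and for SERPINB8 they were EFR3B (0.941), SH3TC1 (0.936) and RAB27A (0.928). The 9 libraries fall into 3 groups and share their scaling, so these values describe likeness of group levels as much as of single libraries.

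Of 18 other secreted serpins described, 6 were tested, and 2 rose and none fell with each construct. At an unadjusted p under 0.05 none was lower with KD 86 and 2 were lower with KD 87, and with the replicate block 3 rose and 2 fell with KD 87. Of all genes tested, 35.6% were called with KD 86 and 10.4% with KD 87, or 31% with KD 87 and the block. The serpins that rose were SERPINA1, alpha-1-antitrypsin, by 3.48 with KD 86 and 1.58 with KD 87 (adjusted p = 8.22e-05 and 0.0138), and SERPINA5, the protein C inhibitor, by 1.88 and 1.77 (adjusted p = 0.0125 and 0.0411). SERPINA5 also inhibits urokinase. It held 49.49, 67.44 and 164.65 normalised reads in EV, 164.78, 347.08 and 489.26 with KD 86, and 293.95, 209.85 and 366.01 with KD 87. On this scale every knockdown library was above every EV library, the nearest being EV replicate 3 and KD 86 replicate 1. Before rescaling these libraries held 166 and 162, so EV and KD 86 overlapped there. SERPIND1, heparin cofactor II, was 2.41 higher with KD 87 than with KD 86 (adjusted p = 0.0068) and 1.66 above EV (adjusted p = 0.0666, or 0.0147 with the block). SERPINF2, alpha-2-antiplasmin, the main inhibitor of plasmin in blood, differed from EV by -0.94 with KD 87 (adjusted p = 0.0711, or 0.0165 with the replicate block) and by -0.06 with KD 86 (adjusted p = 0.899). Of 9 other clade B serpins, 3 were tested: SERPINB5 (maspin) fell by 1.86 on the log2 scale with KD 87 (adjusted p = 0.0267), and SERPINB1 and SERPINB7 were called with neither construct.

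**Figure D3:**
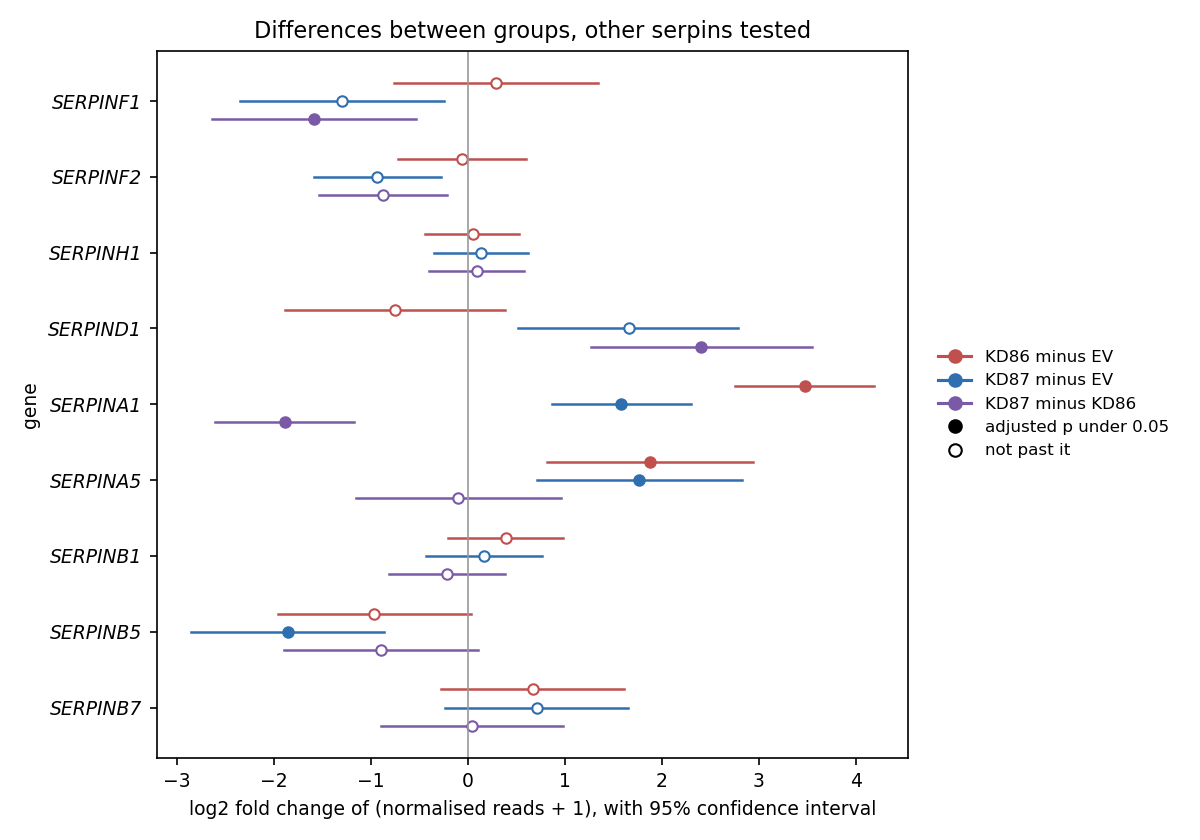
Log2 fold change of each of 9 other tested serpins for KD 86 minus EV, KD 87 minus EV and KD 87 minus KD 86, with 95% confidence intervals from limma and filled points where the adjusted p was under 0.05. SERPINA1 and SERPINA5 were filled and above 0 with both constructs, and SERPINB5 was filled and below 0 with KD 87.

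Plasminogen itself (PLG) was listed at 0 in all 9 libraries. Of 22 genes listed as plasminogen and other trypsin-like or clotting proteases and their starters, 4 were tested. PRSS23, a secreted serine protease, rose by 2.26 with KD 86 (4.8-fold, adjusted p = 6.33e-05) and by 1.50 with KD 87. F12, clotting factor XII, rose by 1.22 with KD 86 (adjusted p = 0.00299) and was -0.39 from EV with KD 87 (adjusted p = 0.313). KLK6, a kallikrein-related protease, rose by 1.75 with KD 87 (adjusted p = 0.00647), and F3, tissue factor, fell by 1.15 on the log2 scale (adjusted p = 0.0246).

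A list of 26 genes held partners of the urokinase receptor, receptors that clear protease complexes, and relatives of PLAUR (the LYPD genes and CD59). Of these, 20 were tested. With KD 86, 11 rose and 4 fell, where 18% of all genes tested rose and 17.6% fell. The relatives LYPD3 and CD59 were among the 11 that rose, and LYPD6 was among the 4 that fell. The median of the list was 1.00, against -0.04 over all genes. With KD 87, 3 rose and none fell, where 5.9% of all genes rose and 4.47% fell. The median there was 0.64 against 0. At an unadjusted p under 0.05, 9 were higher and 2 lower with KD 87. With the replicate block 13 rose and 2 fell, where 31% of all genes were called. The integrin chains ITGAV, ITGA5 and ITGB3, which pair with PLAUR at the membrane, rose by 2.60, 2.93 and 3.98 with KD 86. With KD 87, ITGAV rose by 1.47 and ITGA5 by 1.59, and ITGB3 was 1.40 above EV (adjusted p = 0.0986, or 0.00774 with the block). VLDLR, which takes up urokinase bound to serpins, rose by 2.63 with KD 86 and was 0.86 above EV with KD 87 (adjusted p = 0.0503, or 0.0127 with the block).

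Among proteins that dock plasminogen or tissue plasminogen activator at the cell surface, every call with KD 86 was a fall. Of 12 listed, 11 were tested, and the untested gene, TENT5A, is not such a protein. With KD 86 none rose and 6 fell (median -0.57), where 18% of all genes tested rose and 17.6% fell. With KD 87 none of the 11 was called by limma (median -0.21), where 10.4% of all genes were. Of the 11, 2 were lower with KD 87 at an unadjusted p under 0.05, and 1 was called lower with the block. PLGRKT, the plasminogen receptor with a C-terminal lysine, fell by 2.34 with KD 86 on the log2 scale. KRT8, a keratin that can bind plasminogen, fell by 2.08, and ANXA1 and HMGB1 fell by 1.01 and 1.00. HMGB1 was -0.66 from EV with KD 87 (adjusted p = 0.124, or 0.0188 with the block). KRT8 and PLGRKT were higher with KD 87 than with KD 86 by 2.30 and 2.25 (adjusted p = 0.000384 and 0.0074).

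Calls among other inhibitors, other proteases and substrates were mostly rises with KD 86. Of all genes tested, 18% rose and 17.6% fell with KD 86, and 5.9% rose and 4.47% fell with KD 87. With the replicate block 55.3% of all genes were called with KD 86 and 31% with KD 87. Of 16 tested inhibitors of 27 listed, 7 rose and 2 fell with KD 86, and 3 rose and 2 fell with KD 87. With the replicate block these counts were 9 and 3 with KD 86, and 7 and 4 with KD 87. SMPD4, on that list though not a protease inhibitor, was called with neither construct without the block. It is among the 4 lower with KD 87 with the block. TIMP2, an inhibitor of matrix metalloproteases, rose by 2.45 and 1.33, and A2M, a broad protease trap, rose by 2.36 and 2.04. APLP2 and APP, membrane proteins with forms that carry a Kunitz inhibitor domain, rose by 1.65 and 1.21 with KD 86. With KD 87 they were 0.76 and 0.71 above EV (adjusted p = 0.0574 and 0.06, or 0.00858 and 0.00648 with the block). Of 7 tested proteases of 18 listed, 6 rose with KD 86 and 2 with KD 87, or 3 with the block, and none fell. They were led by HTRA1 (2.95 with KD 86, -0.32 and not called with KD 87), the lysosomal cathepsins CTSS (4.03 and 2.76) and CTSK (2.28 and 1.21), and CTSB (1.55 with KD 86). Of 22 tested substrates and downstream proteases of 28 listed, 12 rose and 2 fell with KD 86 (median 0.84), and 4 rose and 1 fell with KD 87 (median -0.04). With the block 14 rose and 3 fell with KD 86, and 4 rose and 4 fell with KD 87. MMP2 rose by 2.69 and 1.17, and LTBP1, which holds latent TGF-beta in the matrix, rose by 2.36 with KD 86. MMP1, interstitial collagenase, rose by 2.31 with KD 86 and fell by 1.79 on the log2 scale with KD 87, a difference between the constructs of -4.10 (adjusted p = 1.55e-05). SDC4, a membrane proteoglycan, rose by 2.63 with KD 87 and was 0.72 above EV with KD 86 (adjusted p = 0.0648, or 0.00568 with the block).

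Of 21 listed transcription factors, 20 were tested. They are AP-1 and ETS factors, families known to bind promoters of this system, with SP1 and EGR1, which belong to neither family. SP1 and EGR1 are named outside the rule for named genes. With KD 86, 7 rose and 1 fell, and with KD 87, 4 rose and none fell, where 5 were higher and 4 lower at an unadjusted p under 0.05. With the replicate block 9 rose and 2 fell with KD 86, and 5 rose and 4 fell with KD 87. EGR1 was among the 4 lower with KD 87 in both of these counts. Over all genes tested, limma called 35.6% with KD 86 and 10.4% with KD 87, or 55.3% and 31% with the block. JUN rose by 1.08 with KD 86 (adjusted p = 0.0057) and by 1.23 with KD 87 (adjusted p = 0.0103), and ETS1 rose by 1.97 and 1.45. ELF1 and ELK3 rose by 1.41 and 0.94 with KD 86, and ELK3 was -0.53 from EV with KD 87 (adjusted p = 0.11, or 0.026 with the block).

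**Figure D4:**
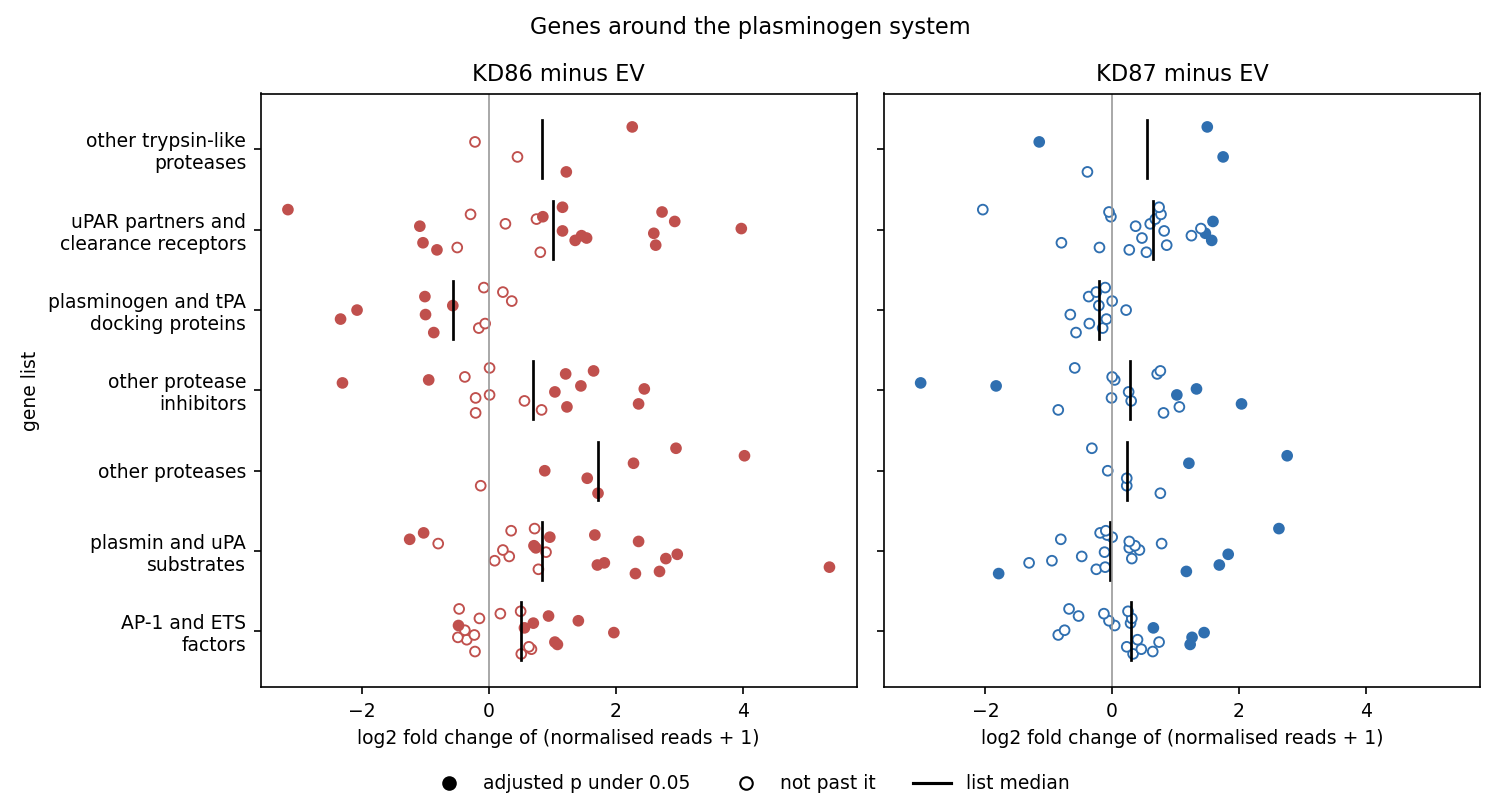
Log2 fold change of each tested gene of 7 gene lists (rows) for KD 86 minus EV and KD 87 minus EV, 1 point a gene, filled where the limma adjusted p was under 0.05, with the list's median as a bar. The docking proteins lie mostly below 0 with KD 86, and the list of receptor partners, clearance receptors and PLAUR relatives lies mostly above 0.

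Markers of other cell types were measured beside these changes. The summed level of the 7 tested of 8 fibroblast markers ran from 436 to 501 normalised reads in EV, from 1151 to 1488 with KD 86 and from 895 to 1113 with KD 87, and THY1 was at 0. That of the 8 melanoma markers ran from 6136 to 13588, from 30182 to 51867 and from 13512 to 21432, and SOX10 and CSPG4 made up most of it. By gene, 3 melanoma markers rose and none fell with KD 86, and 2 rose and 1, PAX3, fell with KD 87. Of the fibroblast markers, 5 rose with KD 86 and 3 with KD 87, and none fell. Over all genes tested, 35.6% were called with KD 86 and 10.4% with KD 87. Of 7 keratinocyte markers 2 were tested, with sums of 1027 to 2178, 689 to 1165 and 1340 to 1788, and KRT5, KRT1, DSG3, TP63 and IVL were at 0. Of 9 blood cell and endothelial markers, 8 were at 0 in every library and PECAM1 was not analysed here. These libraries are of bulk RNA, so more cells of a kind and more RNA per cell cannot be told apart, and the part of these markers in the members' results was not tested.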

How the data were processed

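3′ mRNA libraries of A375 cells were sequenced, 3 each of EV, KD 86 and KD 87. The authors deposited 1 table per library of normalised, rounded read counts, treated here as a score because they are no longer raw counts. STAR, Subread, featureCounts, edgeR and hg19 are named in the submitters' processing notes, with no versions. Each table had 60420 identifiers: 45742 were at 0 in all 9 libraries, 400 were above 0 only in the EV and KD 86 tables and 453 only in the KD 87 tables, and these were left out. The KD 87 tables thus carry their own set of identifiers at 0. Any separate processing of the KD 87 tables cannot be told apart from the construct, in comparisons with EV or with KD 86. The worth of 1 read was recovered from the value steps, giving the depths. Values were rescaled by TMM multipliers of 0.99 to 1.017, and limma 3.58.1 in R 4.3.3 was fitted with a variance trend to log2(value + 1) over all 9 libraries (6 residual degrees of freedom, two-sided). The fit was tested on simulated data.

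Replicate numbers come from the sample titles. Deviations from the group means over 13299 genes correlated at 0.207 to 0.745 for the 9 pairs of same-numbered libraries, and at -0.66 to 0.151 for the 18 other pairs, so the numbers were taken as pairing the libraries. The fit with the replicate block is given beside the members' results and the comparisons with EV of named genes where it changes a call. Promoter windows are from RefSeq on GRCh38.p14, with 8 of 9 members matched (13 windows), and no coordinate was converted. Transcript lengths and overlapping genes are from GENCODE, and the order of neighbouring genes is from RefSeq. Up to 4 genes per list were named, by the smallest adjusted p with either construct, and 3 most alike genes per member. A gene of the list of other secreted serpins is not reported here. The members and lists were chosen with earlier results of these data known. Precision is limited by 3 libraries per group and, for PLAU, SERPINB2 and SERPINI1, by few reads. Other scalings, pseudocounts, low-value filters, fits and left-out libraries were tried.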

Additional observations from a re-analysis of the deposited data

Results flagged for a closer look

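For 3 members the effects of the constructs differed by a direct test of KD 87 against KD 86 (limma, adjusted over all genes tested), which is what singled them out. PLAU was 1.94 higher on the log2 scale with KD 87 (adjusted p = 0.0144), with EV between the constructs in mean. SERPINE2 differed by -1.15 (adjusted p = 0.0117), with KD 86 at the EV level. SERPINI1 was 2.98 higher with KD 87 (adjusted p = 0.00131), and both constructs had means above EV. The KD 87 tables also differ from the others in which genes are listed at 0, and the part of their processing in these differences was not tested.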

How the results depend on the processing

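Each result was recomputed under 21 alternatives. With the replicate block, which follows the pairing of the libraries by number, the genes called went from 4920 to 7639 with KD 86, from 1433 to 4283 with KD 87 and from 3524 to 6100 between the constructs. The members called became 3, 5 and 3. With the block and the length trend removed together the genes called were 7573, 4799 and 6576, and the members called were 4, 6 and 4. With a mean of at least 50 required, which leaves out PLAU and SERPINB2, 1 member was called with KD 86. In a fit of only the 2 groups compared, 858 genes were called with KD 87. The block added the calls of PLAU with KD 87 and of SERPINI1 with KD 86, and changed no other member's call.

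Leaving out 1 library at a time, the genes called ran from 3045 (without KD 86 replicate 2) to 6012 with KD 86 and from 2207 (without KD 86 replicate 2) to 4195 between the constructs. With KD 87 they ran from 376 to 2549: 376 without KD 87 replicate 1, 607 without KD 87 replicate 2, 526 without EV replicate 1 and 2549 without EV replicate 2. The members called ran from 2 to 3 with KD 86, 1 to 4 with KD 87 and 2 to 3 between the constructs.

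Differences close to 0 changed sign. SERPINE2 with KD 86 was -0.01 on the values as deposited, -0.08 and -0.11 without EV replicates 1 and 2 and -0.04 without KD 86 replicate 1, in a range from -0.11 to 0.22 over left-out libraries. SERPINB8 with KD 87 was 0.07 without EV replicate 1 and 0.10 without KD 87 replicate 3 (lowest -0.1), and PLAT was -0.15 without EV replicate 1 (highest 0.45). Between the constructs PLAT was 0.01 without KD 86 replicate 3 (lowest -0.45) and SERPINB2 was -0.02 without KD 87 replicate 1 (highest 0.94). SERPINB6 was 0.01 as deposited, 0.16 with the length trend removed, with or without the block, 0.10 without KD 86 replicate 3 and 0.13 without KD 87 replicate 2 (lowest -0.14). The cause was not tested. An added fit on values rebuilt from recovered reads was chosen after seeing the data.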
